A study of Mus musculus with 9 samples.

Results

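Messenger RNA of 10 genes that make or regulate the MHC class I antigen presentation pathway was followed in the intestinal stem cell niche of the mouse ileum. The genes were taken by name from a table of 18220 rows, matched by NCBI gene number: B2m, H2-K1, H2-D1, Tap1, Tap2, Tapbp, Psmb8, Psmb9, Psmb10 and Nlrc5. All 10 were found, and all 10 passed the minimum mean FPKM of 1 that a gene needed to be tested. FPKM is the fragment count scaled to transcript length and sequencing depth. The niche, the crypt base where stem cells lie among Paneth cells, was cut out of tissue by laser microdissection and its total RNA was sequenced, with 3 biological replicates for each of 3 groups of wild-type mice. SAMP/YitFc (SAMP) mice spontaneously develop an ileitis that resembles Crohn's disease, and AKR is the control strain. AKR mice of 25 weeks (AKR 25 wk) and SAMP mice of 5 weeks (SAMP 5 wk) had no inflammation according to the series description, while SAMP mice of 25 weeks (SAMP 25 wk) were severely diseased. No treatment was given in any group, as far as the labels state.

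Class I molecules show fragments of a cell's own proteins to CD8+ T cells. The proteasome cuts proteins into peptides, the transporter formed by Tap1 and Tap2 moves them into the endoplasmic reticulum, and tapasin (Tapbp) helps to load them onto a heavy chain, such as H2-K1 or H2-D1, that is paired with beta-2 microglobulin (B2m). Interferon-gamma replaces the catalytic subunits Psmb5, Psmb6 and Psmb7 of the standard proteasome by Psmb8, Psmb9 and Psmb10, which gives the immunoproteasome. Nlrc5 is a transactivator of class I genes. Intestinal epithelial cells express class I molecules, as nearly all nucleated cells do.

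Psmb9, Tap1, Psmb8 and Tap2 lie next to each other in the MHC region of chromosome 17 (34182030 to 34216321, GRCm38), a span of 34292 bases. Psmb9 and Tap1 are read away from each other, and 225 bases separate their annotated starts. H2-K1 (33996012 to 34000619), Tapbp (33919478 to 33929290) and H2-D1 (35263094 to 35267497) are elsewhere on chromosome 17. B2m is on chromosome 2 (122147687 to 122153082), and Psmb10 (105935728 to 105938392) and Nlrc5 (94434335 to 94527272) are on chromosome 8. The shared stretch between Psmb9 and Tap1 and the region upstream of B2m are shown because B2m, Psmb9 and Tap1 were among the genes with the largest differences described below. Sequences are from RefSeq for GRCm38.p6, a C57BL/6 reference, and not from AKR or SAMP mice. Capitals mark a GAAANNGAAA core of an interferon response element, a TGACG X2 core and an ATTGG Y box, on the strand printed; a match is a description of the letters only. The 250 bases upstream of B2m (chr2:122147437-122147686, plus strand) hold one of each, and the 225 bases between Psmb9 and Tap1 (chr17:34187331-34187555, minus strand, in the direction of Psmb9) hold the Y box:
B2m: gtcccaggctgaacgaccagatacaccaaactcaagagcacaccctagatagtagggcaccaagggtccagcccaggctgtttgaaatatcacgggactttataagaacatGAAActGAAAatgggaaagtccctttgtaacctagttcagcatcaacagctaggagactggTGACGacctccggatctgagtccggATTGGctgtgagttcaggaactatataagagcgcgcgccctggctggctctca
Psmb9 to Tap1: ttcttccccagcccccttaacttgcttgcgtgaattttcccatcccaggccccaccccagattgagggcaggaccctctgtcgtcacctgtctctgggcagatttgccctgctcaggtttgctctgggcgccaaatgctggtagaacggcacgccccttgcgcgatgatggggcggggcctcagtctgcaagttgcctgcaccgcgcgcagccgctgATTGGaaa

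Promoter windows of 300 bases, from 250 before to 50 after the start, were searched on both strands for 8 of the 10 genes and for 27025 genes in all. Among the 8, the GAAANNGAAA core was in the window of B2m alone, against 3.49% of all windows. The TTCNNNGAA core of a GAS element was in that of Psmb8 alone, against 8.47% of all. The Y box was in the windows of 6 genes and in 37.9% of all, and the GGGNNNNNCC core of NF-kB was in 5 and in 50.4% of all. The Y box is also part of the spaced pair given next, and the windows of Psmb9 and Tap1 share 275 bases. A TGACG core followed after 20 bases by a Y box, the spacing of the X2 and Y boxes to which Nlrc5 is recruited through other factors, was searched after the sequences had been read. It was in 26 of the 27025 windows, or 0.0962%, among them those of B2m, H2-K1, H2-D1 and the class I heavy chain gene H2-M3. Other genes, such as Nasp, Ghitm and Calu, held it as well. Because the pair was chosen with sequences known, its presence is not a test. The 3 stretches of 30 bases are shown because the heavy chains and their partner B2m share this layout. They lie on chr2:122147609-122147638 (plus strand), chr17:34000359-34000388 (minus strand, inside the annotated span of H2-K1 and upstream of the start that its window uses) and chr17:35262993-35263022 (plus strand):
B2m: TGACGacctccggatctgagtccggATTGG
H2-K1: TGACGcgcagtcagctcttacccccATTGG
H2-D1: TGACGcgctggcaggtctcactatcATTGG

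Estimated depth was 6960000 to 10030000 reads per library, and Epcam, an epithelial marker, was at an FPKM of 285.05 to 621.71 in every library. AKR 25 wk replicate 2 stood apart by transcripts of villus enterocytes: Fabp6, which binds bile acids in ileal enterocytes, reached 11909.34 there, against 449.05 and 224.23 in the other AKR libraries. SAMP 25 wk replicate 3 had an Xist FPKM of 176.75 and an Eif2s3y FPKM of 0.14, whereas Xist was 0.21 to 1.32 and the Y-linked Eif2s3y 14.53 to 26.97 in the other libraries, so it came from a female by these genes and the others from males. AKR mice carry another MHC haplotype than the reference, and heavy chain genes resemble each other closely, so the values of H2 genes are uncertain where the 2 strains are compared. Psmb9, Tap1, Psmb8 and Tap2 lie in the MHC region as well, and whether the haplotype affects their values was not tested. SAMP 25 wk and SAMP 5 wk share the strain and differ in age and disease together. SAMP 25 wk and AKR 25 wk share the age and differ in strain and disease together, so a difference between them cannot be assigned to either.

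In SAMP 25 wk, the catalytic subunits of the immunoproteasome Psmb8 and Psmb9 fell against AKR 25 wk, by 1.39 ± 0.34 (SE) and 1.64 ± 0.38 on the scale of log2(FPKM + 1), where 1.35% of all tested genes were called lower. Of the 10, 7 were lower in every SAMP 25 wk library than in every AKR 25 wk library, as were 12.6% of all tested genes. B2m, Tap1, H2-K1, H2-D1 and Tapbp were among these and missed the test. Against SAMP 5 wk no gene of the 10 passed in limma, where 1.52% of all tested genes did, and 6 of them were lower in every SAMP 25 wk library, as were 12.3% of all tested genes. Tap2 and Nlrc5, the genes with the lowest levels, followed neither pattern. Lower RNA for a gene in captured tissue can come from fewer cells of a type or from less RNA per cell, which cannot be told apart here.

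B2m, the invariant light chain of class I, had the highest level of the 10. Its FPKM was 1079.13, 1057.71 and 683.13 in AKR 25 wk replicates 1 to 3, 1193.87, 734.31 and 585.53 in SAMP 5 wk, and 491.98, 330.77 and 381.78 in SAMP 25 wk. All 3 SAMP 25 wk libraries were below the other 6, and the 2 groups without inflammation overlapped. The means were 940.0 ± 223 (SD, n = 3), 837.9 ± 317 and 401.5 ± 82.4. The log2 fold change of SAMP 25 wk was -1.21 ± 0.32 (SE) against AKR 25 wk, with an adjusted p of 0.0729 in limma, and -1.01 ± 0.32 against SAMP 5 wk, with an adjusted p of 0.155. With quantile normalization the latter was -0.48 (adjusted p of 0.232 in limma). An estimated 2111 to 8083 reads per library lay behind these values.

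The heavy chain gene H2-K1 was at an FPKM of 295.1, 221.96 and 225.44 in AKR 25 wk, 228.81, 223.15 and 167.67 in SAMP 5 wk, and 199.22, 168.23 and 163.0 in SAMP 25 wk. SAMP 25 wk lay below AKR 25 wk without overlap and overlapped SAMP 5 wk. H2-D1 was at 101.86, 96.21 and 85.3 in AKR 25 wk, 85.4, 81.25 and 69.48 in SAMP 5 wk, and 61.45, 65.16 and 63.52 in SAMP 25 wk. Here SAMP 25 wk was below both other groups, with a small spread of its own, at 63.4 ± 1.86 (SD, n = 3). The log2 fold changes against AKR 25 wk were -0.48 ± 0.23 (SE) for H2-K1 and -0.56 ± 0.19 for H2-D1, and neither passed (adjusted p of 0.347 and 0.164 in limma). Against SAMP 5 wk they were -0.21 ± 0.23 and -0.30 ± 0.19 (adjusted p of 0.686 and 0.452 in limma). With quantile normalization these values shrank or turned: H2-K1 was at -0.13 against AKR 25 wk and 0.16 against SAMP 5 wk, and H2-D1 at -0.28 and -0.023. The ratio of B2m to H2-K1 in FPKM, chosen after the values were seen, was 3.66, 4.77 and 3.03 in AKR 25 wk and 5.22, 3.29 and 3.49 in SAMP 5 wk. In SAMP 25 wk it was 2.47, 1.97 and 2.34, below all the others, so B2m differed by more than H2-K1 within the same libraries. The ratio of B2m to H2-D1 separated the groups only narrowly. It was 8.0062, 5.0763 and 6.0104 in SAMP 25 wk, and its lowest values were 8.0086 in AKR 25 wk and 8.4273 in SAMP 5 wk.

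**Figure D1:**
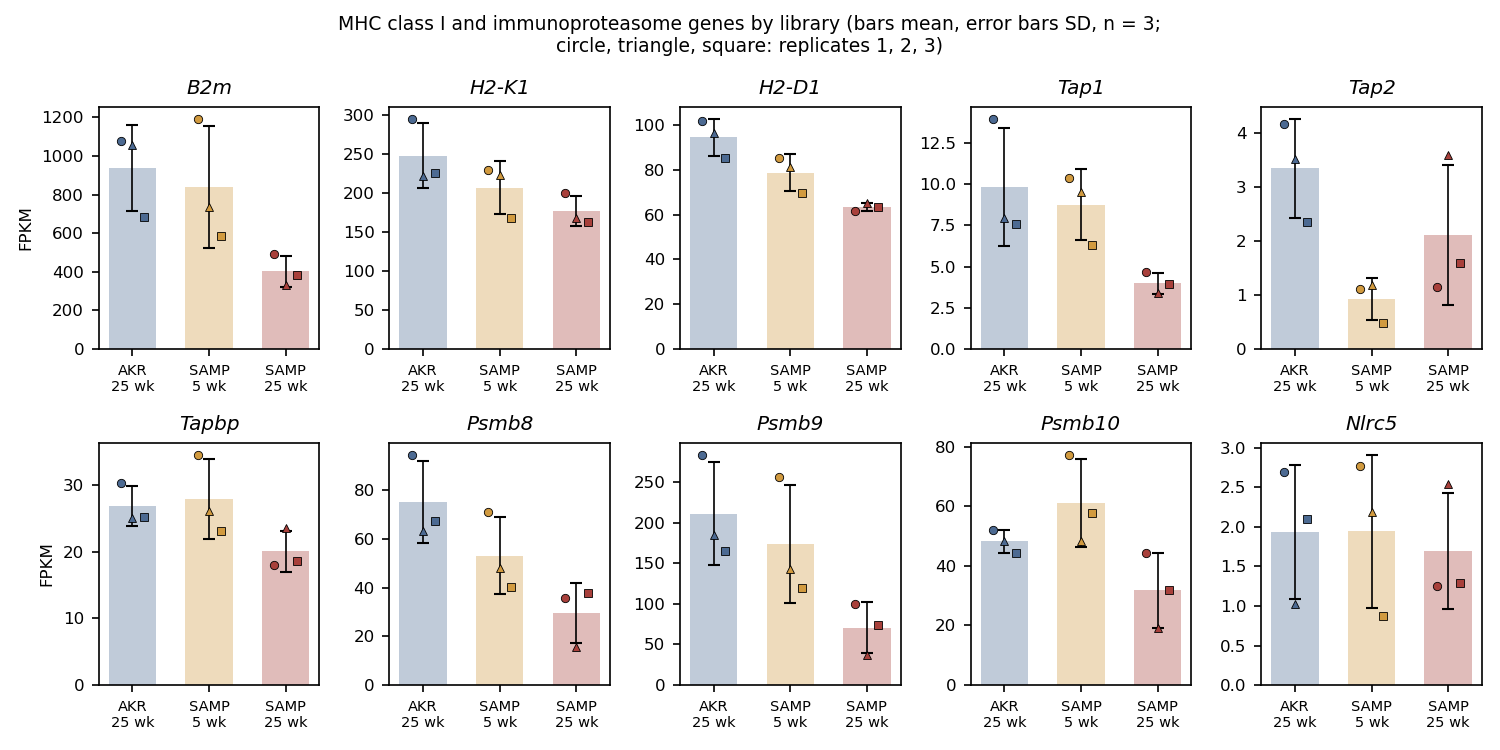
FPKM of each gene in 9 libraries of the ileal stem cell niche: bars are group means, error bars the SD of 3 libraries, and circles, triangles and squares replicates 1, 2 and 3. SAMP 25 wk lies below both other groups without overlap for B2m, H2-D1, Tap1, Psmb8 and Psmb9, and the groups overlap for Nlrc5.

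Among the transport and loading genes, Tap1, a subunit of the peptide transporter, was at an FPKM of 13.98, 7.95 and 7.56 in AKR 25 wk, 10.4, 9.52 and 6.32 in SAMP 5 wk, and 4.65, 3.39 and 3.94 in SAMP 25 wk. As for B2m, the SAMP 25 wk libraries were the 3 lowest of all 9. The log2 fold change was -1.08 ± 0.26 (SE) against AKR 25 wk, with an adjusted p of 0.0515 in limma just over the threshold of 0.05, and -0.95 ± 0.26 against SAMP 5 wk, with one of 0.108. A pseudocount of 5 gave -0.70 and -0.60 (adjusted p of 0.0728 and 0.141 in limma). Tapbp, which encodes tapasin, was at 30.43, 25.03 and 25.32 in AKR 25 wk, 34.64, 26.11 and 23.15 in SAMP 5 wk, and 18.08, 23.58 and 18.6 in SAMP 25 wk. SAMP 25 wk lay below AKR 25 wk by a narrow margin and overlapped SAMP 5 wk, with log2 fold changes of -0.41 ± 0.21 and -0.45 ± 0.21 (adjusted p of 0.387 and 0.321 in limma), or -0.22 and -0.27 with quantile normalization.

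Tap2, the other subunit of the transporter, had another order of groups. Its FPKM was 4.17, 3.52 and 2.36 in AKR 25 wk, 1.11, 1.19 and 0.48 in SAMP 5 wk, and 1.14, 3.59 and 1.6 in SAMP 25 wk. The lowest group was SAMP 5 wk, every library of which was below every AKR 25 wk library, while SAMP 25 wk overlapped both. The log2 fold change of SAMP 5 wk against AKR 25 wk was -1.17 ± 0.32 (SE), with an adjusted p of 0.254 in limma, and between -1.80 and -0.49 with pseudocounts of 0.1 and 5. At this level 1 library rested on an estimated 17 reads, and the highest on 125. Nlrc5 was at 2.69, 1.02 and 2.1 in AKR 25 wk, 2.77, 2.19 and 0.87 in SAMP 5 wk, and 1.25, 2.54 and 1.29 in SAMP 25 wk. The groups of this transactivator overlapped throughout, with 61 to 163 estimated reads per library and log2 fold changes of -0.11 ± 0.34 (SAMP 25 wk over AKR 25 wk) and -0.10 ± 0.34 (SAMP 25 wk over SAMP 5 wk; adjusted p of 0.905 and 0.913 in limma). At that error, a difference of about the size seen for H2-K1 would not have been detectable for Nlrc5.

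Psmb9, the inducible counterpart of Psmb6, was at an FPKM of 283.86, 184.65 and 164.73 in AKR 25 wk, 255.87, 143.41 and 120.09 in SAMP 5 wk, and 99.83, 37.04 and 74.33 in SAMP 25 wk. All SAMP 25 wk libraries were below the other 6, and the lowest, replicate 2, had less than 1 in 3 of the level of any library outside its group. Psmb9 fell by 1.64 ± 0.38 (SE) on the log2 scale against AKR 25 wk (adjusted p of 0.0421 in limma), and was at -1.32 ± 0.38 against SAMP 5 wk (adjusted p of 0.123 in limma). Psmb8, the inducible counterpart of Psmb5, was at 94.7, 63.45 and 67.45 in AKR 25 wk, 70.97, 47.94 and 40.43 in SAMP 5 wk, and 35.63, 15.5 and 37.85 in SAMP 25 wk. It showed the same order, again with replicate 2 lowest in SAMP 25 wk. Psmb8 fell by 1.39 ± 0.34 against AKR 25 wk (adjusted p of 0.0491 in limma), and its log2 fold change against SAMP 5 wk was -0.88 ± 0.34 (adjusted p of 0.236 in limma). Both calls against AKR 25 wk were close to the threshold, and both ended when AKR 25 wk replicate 1, 2 or 3, SAMP 5 wk replicate 2 or 3, or SAMP 25 wk replicate 2 or 3 was left out. Without SAMP 25 wk replicate 2 the log2 fold changes were -1.24 for Psmb9 and -0.99 for Psmb8 (adjusted p of 0.137 and 0.129 in limma), and without AKR 25 wk replicate 1 they were -1.41 and -1.21 (adjusted p of 0.165 and 0.182 in limma). Without both libraries that stood apart, AKR 25 wk replicate 2 and SAMP 25 wk replicate 3, they were -1.81 and -1.72 (adjusted p of 0.18 and 0.105 in limma). Over all single libraries left out, Psmb9 ranged from -1.95 to -1.24 and Psmb8 from -1.61 to -0.99.

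Psmb10, the inducible counterpart of Psmb7, was at an FPKM of 52.01, 48.48 and 44.22 in AKR 25 wk, 77.38, 48.48 and 57.67 in SAMP 5 wk, and 44.37, 19.09 and 31.91 in SAMP 25 wk. Its highest group was SAMP 5 wk, and SAMP 25 wk was below that group without overlap but reached into the range of AKR 25 wk. The log2 fold changes were -0.97 ± 0.29 (SE) against SAMP 5 wk (adjusted p of 0.128 in limma) and -0.66 ± 0.29 against AKR 25 wk (adjusted p of 0.298 in limma). Without SAMP 25 wk replicate 1, Psmb10 and Psmb9 passed against SAMP 5 wk, with log2 fold changes of -1.25 and -1.62 (adjusted p of 0.033 and 0.0444 in limma). Without SAMP 25 wk replicate 2 the same values were -0.66 and -0.92 (each with an adjusted p of 0.387 in limma). Against AKR 25 wk, Psmb10 was at -0.35 without SAMP 25 wk replicate 2 and at -0.93 without SAMP 25 wk replicate 1.

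Counted together, 2 of the 10 genes fell and 0 rose in SAMP 25 wk against AKR 25 wk, where 2.94% of 11775 tested genes passed in either direction, 1.35% lower and 1.59% higher. At an unadjusted p under 0.05, 6 were lower, against 10.6% of all. Of the 10, 7 were lower without overlap, against 12.6% of all tested genes, and these were B2m, H2-K1, H2-D1, Tap1, Tapbp, Psmb8 and Psmb9. The median log2 fold change of the 10 was -0.61, against -0.15 for all tested genes, of which 67.1% were below 0. Against SAMP 5 wk, 0 of the 10 passed in limma, where 1.52% of all genes did, and 5 were lower at an unadjusted p under 0.05, as were 11% of all genes. Lower without overlap were 6 of the 10, against 12.3% of all: B2m, H2-D1, Tap1, Psmb8, Psmb9 and Psmb10. The median was -0.66, with -0.12 for all genes. These comparisons share the SAMP 25 wk libraries.

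Between the groups without inflammation, SAMP 5 wk and AKR 25 wk, 0 of the 10 passed in limma, where 0.552% of all genes did. Tap2 alone did not overlap, with 8.33% of all genes lower in that way, and it alone was lower at an unadjusted p under 0.05, against 4.14% of all. The median was -0.23, and Psmb10 had the largest positive log2 fold change, at 0.31. AKR 25 wk libraries enter both comparisons with that group, and strain and age differ together here.

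**Figure D2:**
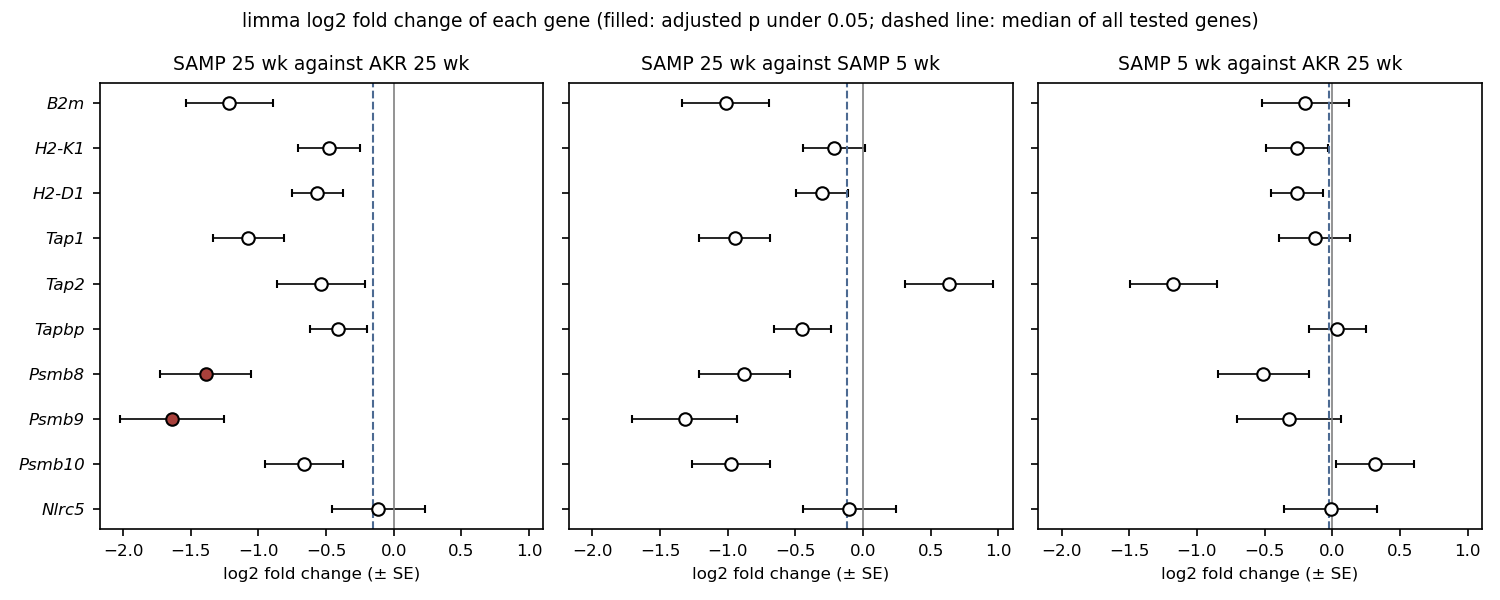
Log2 fold change of each gene, on log2(FPKM + 1), in 3 comparisons, with horizontal bars for the SE from limma, filled points for an adjusted p under 0.05 and a dashed line at the median of all tested genes. Psmb8 and Psmb9 against AKR 25 wk are the filled points. Tap2, at 0.63 ± 0.32 (adjusted p of 0.359 in limma) with overlapping groups, is the 1 value above 0 of SAMP 25 wk against SAMP 5 wk.

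Highest and lowest levels fell in few libraries. AKR 25 wk replicate 1 had the highest level of 6 genes, among them H2-K1, Tap1 and Psmb9, and SAMP 5 wk replicate 1 that of the other 4. SAMP 25 wk replicate 2 had the lowest level of B2m, Tap1, Psmb8, Psmb9 and Psmb10. Over 9 libraries, which share the scaling and the group differences, Pearson's r between log2 levels had a median of 0.678 across the 45 pairs of genes and of 0.571 after group means were taken off.

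SAMP 25 wk replicate 2 was also low in the constitutive proteasome. Of 14 genes of the standard 20S core, 0 passed in limma in either comparison of SAMP 25 wk, and all 14 had log2 fold changes below 0, with medians of -0.44 against AKR 25 wk and -0.61 against SAMP 5 wk. At an unadjusted p under 0.05, 0 and 6 of them were lower. Psmb5, the constitutive counterpart of Psmb8, was at 93.59, 31.65 and 48.0 in SAMP 25 wk and at 56.21 to 72.52 in AKR 25 wk. Psmb6 was at 45.37, 31.14 and 43.18, and at 44.49 to 57.26 in AKR 25 wk, so the constitutive subunits overlapped between these groups. Ratios of each inducible subunit to its counterpart within a library do not depend on how libraries were scaled.

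The ratio of Psmb9 to Psmb6 was 5.20, 3.22 and 3.70 in AKR 25 wk, 3.42, 2.45 and 2.35 in SAMP 5 wk, and 2.20, 1.19 and 1.72 in SAMP 25 wk. It was lowest in SAMP 25 wk, without overlap with either other group. The mean log2 ratio differed by -1.26 ± 0.33 (SE, n = 3 each) from AKR 25 wk and by -0.71 ± 0.31 from SAMP 5 wk, each with a p of 0.1 in an exact two-sided permutation test, the smallest that 3 libraries against 3 allow (0.15 adjusted over 9 tests). The ratio of Psmb8 to Psmb5 was 1.54, 0.875 and 1.20 in AKR 25 wk, 0.817, 0.784 and 0.640 in SAMP 5 wk, and 0.381, 0.490 and 0.789 in SAMP 25 wk. AKR 25 wk was above both SAMP groups, which overlapped each other. The differences of SAMP 25 wk and SAMP 5 wk from AKR 25 wk were -1.15 ± 0.39 and -0.66 ± 0.26 (each exact p of 0.1, and 0.15 adjusted), and that between SAMP 25 wk and SAMP 5 wk was -0.49 ± 0.33 (exact p of 0.3).

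For Psmb10 to Psmb7 the ratio was 0.437, 0.372 and 0.529 in AKR 25 wk, 0.539, 0.539 and 0.634 in SAMP 5 wk, and 0.416, 0.490 and 0.407 in SAMP 25 wk. SAMP 5 wk was above both other groups, and SAMP 25 wk and AKR 25 wk overlapped, with a difference of -0.02 ± 0.17 (exact p of 1.0). The mean log2 ratio of SAMP 25 wk minus that of SAMP 5 wk was -0.38 ± 0.12, and that of SAMP 5 wk minus that of AKR 25 wk was 0.37 ± 0.17 (each exact p of 0.1, and 0.15 adjusted). With no test able to reach 0.05, these ratios are descriptions of 9 libraries, in which Psmb9 stood lower against its counterpart in the diseased group and Psmb10 against AKR 25 wk did not.

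**Figure D3:**
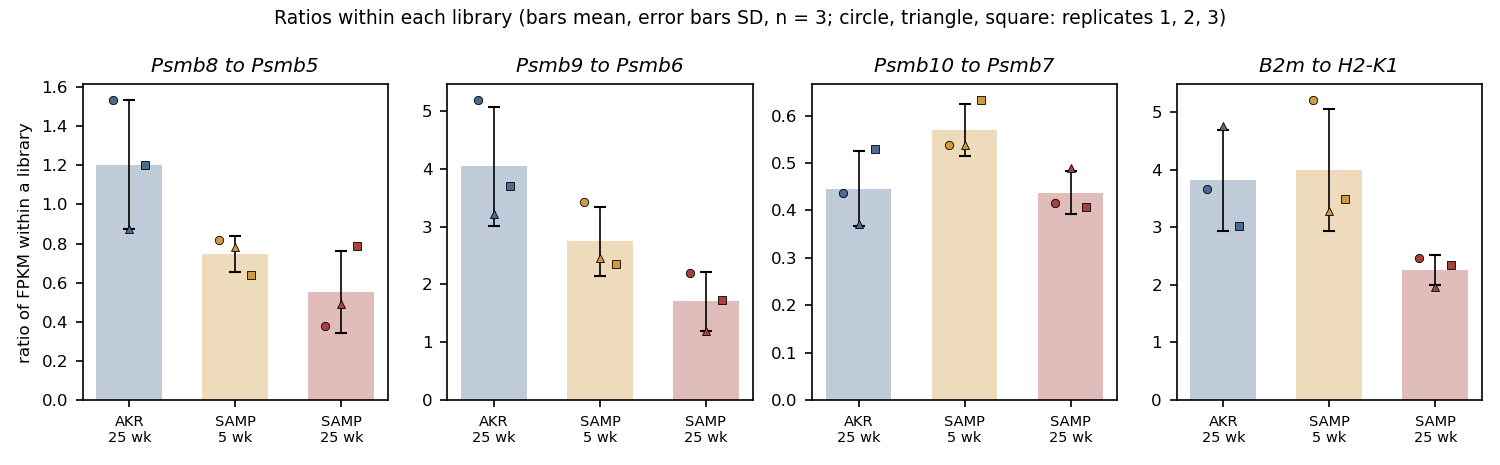
Ratios of FPKM within a library for each inducible proteasome subunit over its constitutive counterpart, and for B2m over H2-K1: bars are group means, error bars the SD of 3 libraries, and points the replicates. SAMP 25 wk is lowest without overlap for Psmb9 to Psmb6 and for B2m to H2-K1, and SAMP 5 wk is highest for Psmb10 to Psmb7.

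The proteasome activator genes Psme1 and Psme2, whose products form the interferon-inducible PA28 cap, were lowest in SAMP 25 wk, as B2m was. Psme2 was at an FPKM of 172.2, 151.32 and 127.79 in AKR 25 wk, 188.89, 136.71 and 133.37 in SAMP 5 wk, and 97.38, 60.01 and 91.77 in SAMP 25 wk, which was lowest without overlap. Its log2 fold changes were -0.87 ± 0.25 (SE) and -0.89 ± 0.25 (adjusted p of 0.103 and 0.114 in limma). Of 9 activator and assembly genes 0 passed in limma in either comparison of SAMP 25 wk, with 2 lower at an unadjusted p under 0.05 in each and medians of -0.38 and -0.44. Loading and trimming partners of class I differed less: of 10 genes 0 passed in limma and 0 had an unadjusted p under 0.05 against AKR 25 wk, with a median of -0.05, and against SAMP 5 wk 0 passed and 1 had one, with a median of -0.17. Calr (calreticulin) had log2 fold changes of 0.18 ± 0.26 and -0.22 ± 0.26, and Pdia3, the disulfide isomerase of the loading complex, of -0.05 ± 0.25 and -0.06 ± 0.25.

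Of 19 further class I heavy chain genes 11 were tested. H2-T3, which encodes the thymus leukaemia antigen of intestinal epithelium, fell by 1.93 ± 0.41 (SE) against AKR 25 wk (adjusted p of 0.0265 in limma). Its FPKM was 8.18, 14.28 and 6.14 in AKR 25 wk, 6.18, 5.75 and 5.11 in SAMP 5 wk, and 3.17, 0.25 and 2.46 in SAMP 25 wk. H2-T3 was thus lowest in SAMP 25 wk, with the highest value in the enterocyte-rich AKR library, whose part in the difference was not tested. The other 10 did not pass, and H2-T23, the Qa-1 gene, was at -0.77 ± 0.29 (adjusted p of 0.229 in limma). The medians over the 11 genes were -0.37 against AKR 25 wk and -0.19 against SAMP 5 wk, where 0 passed in limma and 1 was lower and 1 higher at an unadjusted p under 0.05. H2-Q6 and H2-Q7 were listed at 0 in all libraries of both SAMP groups and in AKR 25 wk replicates 2 and 3. In AKR 25 wk replicate 1 they were near 0, at an FPKM of 0.08 and 0.12.

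Interferon-gamma is a main inducer of these genes. Its own gene, Ifng, was listed at an FPKM of 0 to 0.29 in all 9 libraries. Ifngr1, the ligand-binding chain of the interferon-gamma receptor, was at 46.55, 46.83 and 35.1 in AKR 25 wk, 41.53, 30.39 and 27.34 in SAMP 5 wk, and 28.14, 13.41 and 19.35 in SAMP 25 wk. It was below AKR 25 wk without overlap and did not pass, at -1.09 ± 0.27 (adjusted p of 0.0586 in limma). Irf1, a transcription factor that interferon-gamma induces, overlapped in all comparisons.

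Ifnar1, a chain of the type I interferon receptor, went the other way. Its FPKM was 24.38, 16.48 and 18.59 in AKR 25 wk, 17.17, 17.05 and 12.64 in SAMP 5 wk, and 44.77, 61.79 and 46.23 in SAMP 25 wk, higher than in any other library. It rose by 1.32 ± 0.23 (SE) against AKR 25 wk and by 1.64 ± 0.23 against SAMP 5 wk (adjusted p of 0.00731 and 0.00346 in limma). It was the 1 gene of 13 tested interferon receptor and signalling genes to pass in either comparison, and the medians were 0.01 and 0.04. At an unadjusted p under 0.05 in limma, 3 of the 13 were lower and 1 higher against AKR 25 wk. Against SAMP 5 wk, 4 were lower and 1 higher. Of 15 regulators of class I transcription, among them Rfx5, Nfya, Creb1 and Irf8, 0 passed in limma in either comparison and 3 and 2 were lower at an unadjusted p under 0.05, with medians of -0.23 and -0.21.

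Other genes induced by interferon-gamma, guanylate binding proteins and immunity-related GTPases among them, gave 20 tested genes. Against AKR 25 wk 0 passed in limma and 2 were lower at an unadjusted p under 0.05, with a median of -0.33. Against SAMP 5 wk Irgm2, an immunity-related GTPase, fell by 1.45 ± 0.32 (SE; adjusted p of 0.0493 in limma), 12 of the 20 were lower at an unadjusted p under 0.05, and the median was -0.91. Irgm2 was at 11.06, 6.61 and 8.48 in AKR 25 wk, 15.49, 14.3 and 8.66 in SAMP 5 wk, and 3.23, 2.58 and 6.88 in SAMP 25 wk. With SAMP 5 wk set against AKR 25 wk, these genes had a median of 0.56, while that of the 10 class I and immunoproteasome genes was -0.23.

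**Figure D4:**
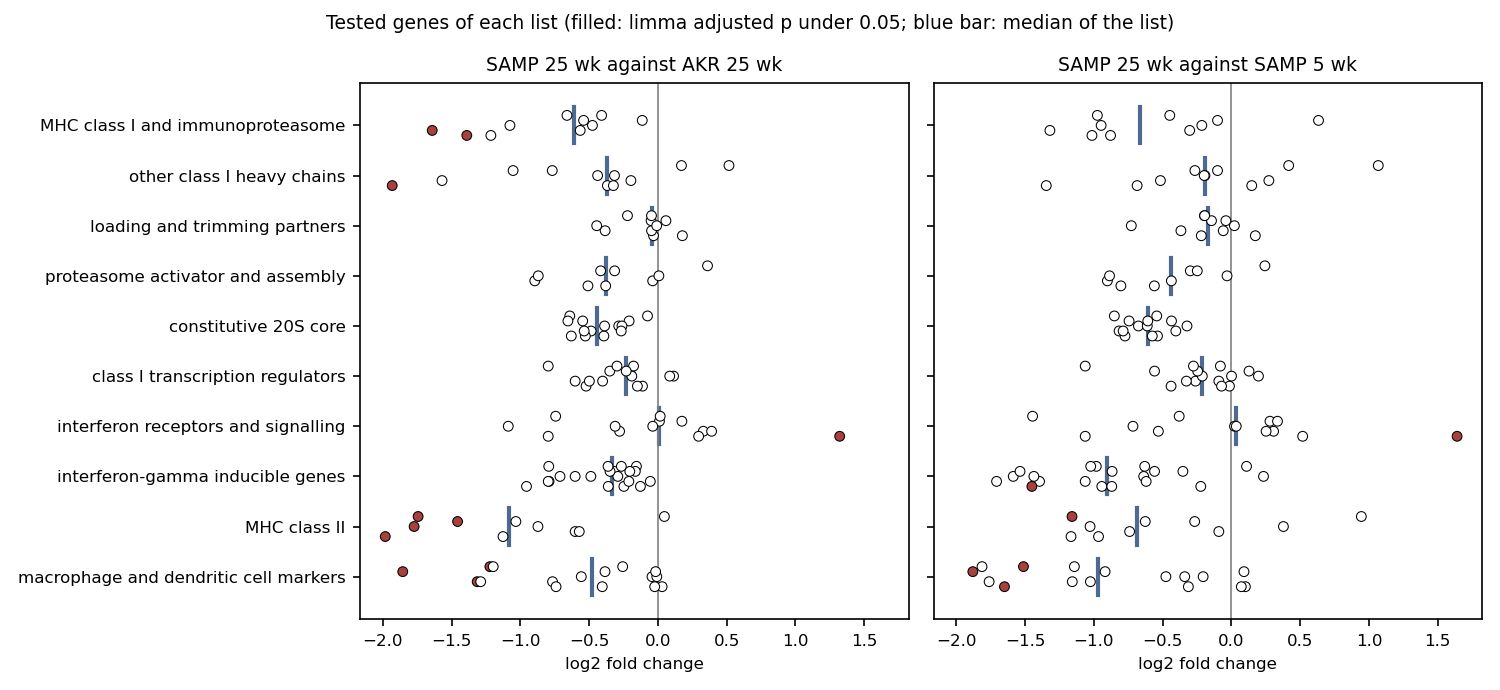
Log2 fold change of every tested gene of the class I and immunoproteasome set and of 9 related lists, in SAMP 25 wk against AKR 25 wk and against SAMP 5 wk, with filled points for an adjusted p under 0.05 in limma and blue bars for list medians. Psmb8, Psmb9 and class II genes are the filled points on the left of the first panel together with H2-T3 and 3 myeloid markers, and Ifnar1 is the filled point on the right of both.

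Genes of the MHC class II pathway, which lie in the same region of chromosome 17 in part, were mostly lower in SAMP 25 wk too. Of 10 tested, 4 fell against AKR 25 wk (H2-Aa by 1.77 ± 0.29, H2-Ab1 by 1.46 ± 0.26, Cd74 by 1.98 ± 0.34 and H2-DMa by 1.74 ± 0.21), with a median of -1.08 and adjusted p of 0.000738 to 0.00857 in limma, and H2-DMa alone fell against SAMP 5 wk, by 1.16 ± 0.21. Against SAMP 5 wk the class II median was -0.68, with 8 of the 10 tested below 0. For SAMP 5 wk over AKR 25 wk it was -0.76, with 0 called in limma. There 5 were lower at an unadjusted p under 0.05, against 4.14% of all genes. The tested gene with the profile most like the mean of the class I and immunoproteasome genes, by Pearson's r over 9 libraries, was the class II gene H2-Ea (r = 0.988). It was at 165.83, 91.82 and 103.82 in AKR 25 wk, 130.14, 74.17 and 45.33 in SAMP 5 wk, and 32.46, 33.3 and 30.81 in SAMP 25 wk. Next were Mocs1 (0.971, chromosome 17), Ccni (0.954, chromosome 5), H2-Aa (0.951) and Coro1a (0.951, chromosome 7), the last a coronin of leukocytes.

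Markers of immune cells were compared in the same libraries. The summed FPKM of 17 macrophage and dendritic cell markers ran from 141.0 to 406.81 among AKR 25 wk libraries, from 253.89 to 462.37 among SAMP 5 wk and from 97.34 to 142.59 among SAMP 25 wk. Single genes weighed heavily in such sums. Lyz2 alone was at 227.01 in AKR 25 wk replicate 1 and 218.58 in SAMP 5 wk replicate 1, the libraries with these 2 maxima. Of 16 tested, Itgam, Cd68 and Fcer1g fell against AKR 25 wk, by 1.22, 1.31 and 1.86, with a median of -0.48, and Itgam, Fcer1g and Cd14 fell against SAMP 5 wk, by 1.51, 1.88 and 1.65, with a median of -0.97. Sums over 16 T and NK cell markers were 39.35 to 64.72, 17.68 to 49.25 and 14.4 to 34.24, and 0 of 10 tested passed in limma in either comparison of SAMP 25 wk, with 2 and 1 lower at an unadjusted p under 0.05 and medians of -0.56 and -0.04. The defining T cell gene Cd3e was at 1.56 to 16.48 over all libraries, and Cd8a at 0.22 to 2.32. For 9 B and plasma cell markers the sums were 120.16 to 283.37, 52.4 to 203.0 and 63.01 to 70.68, with 0 of 6 passing in limma and 4 and 1 lower at an unadjusted p under 0.05, and medians of -1.08 and -0.36. Jchain alone was at 218.51 in AKR 25 wk replicate 1, where the sum was 283.37. For SAMP 5 wk over AKR 25 wk the medians were 0.27 for the macrophage and dendritic cell list, -0.44 for T and NK cells and -0.63 for B and plasma cells, with 0 genes called in limma and 2, 2 and 2 at an unadjusted p under 0.05. The highest sums of each of these lists were in AKR 25 wk replicate 1 and SAMP 5 wk replicate 1. Those libraries also held the highest levels of all 10 class I and immunoproteasome genes. Their sums were 406.81 and 462.37 for macrophage and dendritic cells, 64.72 and 49.25 for T and NK cells, and 283.37 and 203.0 for B and plasma cells. No marker of these lists was at 0 in every library of a group except Xcl1, in SAMP 25 wk. The part of these cells in the values of the class I and immunoproteasome genes was not tested.

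Markers of epithelial lineages differed as well. Summed Paneth cell markers ran from 35948.72 to 82537.38 among AKR 25 wk libraries, from 54114.51 to 69181.61 among SAMP 5 wk and from 89101.88 to 140722.63 among SAMP 25 wk, where Ang4 and Defa17 rose against AKR 25 wk and Ang4 against SAMP 5 wk. Lyz1, the Paneth cell lysozyme, was lower in every SAMP 25 wk library than in any other and did not pass, with log2 fold changes of -1.73 ± 0.44 and -1.67 ± 0.44 (adjusted p of 0.0642 and 0.0934 in limma). The goblet cell genes Muc2 and Spdef rose and Fcgbp and Zg16 fell in both comparisons, and Clca1 rose and Tff3 fell against AKR 25 wk. Summed enterocyte markers were 947.29, 18371.28 and 576.17 in AKR 25 wk replicates 1 to 3, 1730.48, 368.95 and 311.56 in SAMP 5 wk, and 416.19, 174.24 and 240.57 in SAMP 25 wk, so the SAMP groups overlapped and 1 library set the maximum of each group without inflammation. Fabp1 rose in both comparisons from levels near 0. Stem cell marker sums were 292.32 to 690.08, 974.33 to 1197.44 and 738.57 to 844.63, with Prom1 higher against AKR 25 wk. Epithelial, endothelial and stromal lists had 0 genes past the threshold in limma in either comparison. At an unadjusted p under 0.05, 3 epithelial genes were lower and 4 stromal genes higher against AKR 25 wk. Against SAMP 5 wk, 1 epithelial and 1 stromal gene were lower and 4 stromal genes higher. For the endothelial list the count was 0 in both comparisons. The part of these differences in the class I results was not tested.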

How the data were processed

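RNA sequencing of 9 libraries was analysed, with groups set by the strain and age that the labels give; replicates were numbered in accession order and are unpaired. Values are FPKM as the authors deposited them, keyed by NCBI gene number. GRCm38 and the tools STAR, HTSeq, Trimmomatic and DESeq2 are listed in the submitters' processing notes; versions, strandedness and the tool that made the FPKM are not given in the sources used here. A label on cultured crypts is also present. Names came from RefSeq by gene number for 18165 of 18220 rows. FPKM are not counts, so limma 3.58.1 in R 4.3.3 was run on log2(FPKM + 1), which understates changes of low genes, for 11775 genes averaging an FPKM of 1 or more, in 1 fit of 3 group means with 6 residual degrees of freedom, a variance trend and Benjamini-Hochberg adjustment over all tested genes at 0.05. Depth was read off the step size of low FPKM in 6519 genes, as the depth that put the largest share of those values within 0.2 of a whole read. That share was 82.8% to 86.1%. The 40% at random holds for a fixed depth, so it is no test of a depth chosen by this share. Exact reads were not recovered, and the read numbers given are estimates. Ratios were compared by exact permutation tests in Python 3.11.15 with SciPy 1.17.1. The fit was tested on simulated data. The 10 genes and all lists were chosen with earlier results of these data known. The text names all 10 genes, every gene of a list past the threshold, some of the most abundant others and the 5 most alike genes; other genes of the lists were picked as examples. Tried as well were other pseudocounts, filters, scalings, variance settings, thresholds and left-out libraries. A gene of the lists is not reported here by name.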

Additional observations from a re-analysis of the deposited data

How the results depend on the processing

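The count of class I and immunoproteasome genes lower in SAMP 25 wk against AKR 25 wk, 2 as reported, was 1 with a pseudocount of 5 or without a variance trend. It was 0 without a filter, with only the groups compared, and with AKR 25 wk replicate 2 and SAMP 25 wk replicate 3 left out together. It was 4, with B2m and Tap1, after rescaling to TPM, quantile normalization or equal medians, and at a threshold of 0.1. Leaving out single libraries gave 0 to 3, and 0 to 2 against SAMP 5 wk, where every other alternative and the reported fit gave 0. Psmb8 kept its call in 7 and Psmb9 in 10 of 20 alternatives, with adjusted p up to 0.182 and 0.180 in limma. The cause was not tested. The median of all genes against AKR 25 wk was -0.15 as deposited, -0.01 with equal medians and -0.26 as TPM; that of the 10 genes relative to it was -0.46, -0.46 and -0.48. Directions turned for the following values, none of which passed the test. Against AKR 25 wk, Nlrc5 was 0.027 with equal medians and -0.36 to 0.073 with single libraries left out. Against SAMP 5 wk, H2-K1 was 0.16 with quantile normalization, and Nlrc5 was 0.0050 with equal medians and -0.40 to 0.11 with libraries left out. For SAMP 5 wk against AKR 25 wk, Tapbp was -0.030 as TPM, -0.0094 without both unusual libraries and -0.12 to 0.16 with libraries left out, and Nlrc5 was 0.032 with quantile normalization, 0.022 with equal medians and -0.26 to 0.28. With libraries left out Tap1 was -0.27 to 0.13 and B2m -0.49 to 0.025 there, and the log2 ratio of Psmb10 to Psmb7 was -0.14 to 0.11 for SAMP 25 wk against AKR 25 wk. No paired analysis was possible because the replicate numbers follow accession order and pair no libraries. With 3 libraries a group and few reads behind Tap2 and Nlrc5, differences near their standard errors were not detectable.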
